A study of Mus musculus with 4 samples.

Results

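Cubn, Lrp2, Amn, Dab2, Folr1, Lrpap1 and Clic6 are 7 genes listed together as endocytic receptors of the visceral endoderm, though not all encode receptors. They were chosen by name, with earlier results of these arrays in view, and all non-control probes carrying a member's name were taken. This gave 14 of the 41174 probes on the array, and 13 of them were among the 21860 probes tested. All 7 genes were among the 14875 genes tested. Because the members were selected on the ratios given here, these ratios are a description and carry no test.

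The study compared the posterior part of Cdx2+/-Cdx4-/- embryos, which lack Cdx4 and carry a single working copy of Cdx2, with that of wildtype embryos. Both groups were taken at 5 to 6 somites, dissected at the level of the last somite boundary, pooled from 10 embryos per genotype and kept in RNAlater until extraction. Each of 4 whole-genome mouse arrays of 2 colours (Cy3 and Cy5) received RNA of both genotypes. They were labelled replicate 1, replicate 1 dye swap, replicate 2 and replicate 2 dye swap, and named here arrays 1 to 4. The labels do not say whether yolk sac or visceral endoderm was kept with the tissue, nor whether the replicates were separate pools, so the errors cover the scatter between hybridisations alone and may be technical.

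The visceral endoderm is the outer epithelium of the early embryo and yolk sac, and it takes up maternal proteins, lipids and vitamins before the placenta works. Cubilin (Cubn) has no membrane span of its own and is held at the apical membrane by amnionless (Amn), while megalin (Lrp2), a giant lipoprotein-type receptor, takes up many ligands alone or with cubilin. The receptors are drawn into clathrin-coated pits through adaptors such as Dab2, pass through endosomes, and return to the surface while their ligands go to lysosomes.

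The direction of the ratios was set by the Cdx4 probe (chrX:99532694-99532753, mm8), since the targeted gene went against the labels of 2 arrays. Each array was turned so that its Cdx4 ratio was negative, and a ratio is therefore log2 of the channel with low Cdx4 over the channel with high Cdx4. The turned Cdx4 ratios were -2.59, -2.11, -2.82 and -2.42 on arrays 1 to 4. Cdx2 (chr5:147611320-147611379, mm8) was lower in the same channel on all 4 arrays, at -0.77, -0.50, -0.45 and -0.45. The low-Cdx4 channel is the one labelled mutant on arrays 1 and 4 and the one labelled wildtype on arrays 2 and 3. By the labels of arrays 2 and 3 every sign below would turn. The channel with low Cdx4 was Cy5 on arrays 1 and 2 and Cy3 on arrays 3 and 4, so dye orientation and labelled replicate cannot be told apart.

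The promoters of Cubn, Lrp2 and Amn, which were the 3 lowest members, are shown to set their sequence beside their common direction. They are RefSeq windows on GRCm38.p6, from 250 bases before to 50 bases after the gene start, read 5′ to 3′ on the gene's strand. They lie at chr2:13491827-13492126 on the minus strand for Cubn, chr2:69585980-69586279 on the minus strand for Lrp2 and chr12:111270846-111271145 on the plus strand for Amn. Capitals mark matches to the motifs searched.
Cubn: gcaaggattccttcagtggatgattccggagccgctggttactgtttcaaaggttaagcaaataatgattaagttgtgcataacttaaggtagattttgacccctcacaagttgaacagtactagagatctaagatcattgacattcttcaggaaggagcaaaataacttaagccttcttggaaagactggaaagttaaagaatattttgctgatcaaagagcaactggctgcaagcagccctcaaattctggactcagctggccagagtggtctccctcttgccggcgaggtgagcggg
Lrp2: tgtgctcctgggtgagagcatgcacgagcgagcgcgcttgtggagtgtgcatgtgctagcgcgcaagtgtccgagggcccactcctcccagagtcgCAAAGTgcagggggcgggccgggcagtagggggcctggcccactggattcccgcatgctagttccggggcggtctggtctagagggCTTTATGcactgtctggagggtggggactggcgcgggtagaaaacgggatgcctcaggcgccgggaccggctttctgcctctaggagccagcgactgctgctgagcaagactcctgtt
Amn: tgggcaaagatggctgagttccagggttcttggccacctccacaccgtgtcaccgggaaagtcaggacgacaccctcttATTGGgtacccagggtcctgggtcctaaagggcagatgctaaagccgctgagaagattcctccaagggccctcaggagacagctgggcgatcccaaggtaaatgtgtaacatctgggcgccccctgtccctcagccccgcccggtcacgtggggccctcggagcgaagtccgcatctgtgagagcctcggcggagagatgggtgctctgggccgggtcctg
Windows were found for 5 of the 7 members, Cubn, Lrp2, Amn, Lrpap1 and Dab2, the last with a pair of starts. Motifs were searched on both strands, of which 7 are described. For the caudal-type homeodomain proteins the letters were TTTATG, and also ATAAAG, which can overlap it on the opposite strand. For the Gata zinc-finger factors the letters searched were AGATAA. The nuclear receptor Hnf4 was represented by the letters CAAAGT. The high-mobility-group proteins of the Sox family were represented by ATTGTT, and the core promoter by the TATA box letters TATAAA and by the box named CCAAT. The Lrp2 window held CAAAGT at position -154 from the start, a match present in 14.4% of all 32851 windows. It also held ATAAAG (13.5% of windows) and TTTATG (11.9% of windows), which overlap at positions -68 and -67 on opposite strands. The Amn window held CCAAT at position -171, as did 37.4% of windows somewhere in their length. The Cubn window held none of the 7 motifs. The Lrpap1 window also held none, and of the Dab2 windows the upstream one held CAAAGT and AGATAA. GC content was 44.3% in the Cubn window, 65% in the Lrp2 window and 62.3% in the Amn window, against a median of 52.7% over all windows. No motif was shared by the Cubn, Lrp2 and Amn windows.

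Cubn, Lrp2, Amn, the folate receptor gene and Clic6 were called lower in the low-Cdx4 RNA. The adaptor gene Dab2 was lower by a smaller amount that was not called, and the chaperone gene Lrpap1 differed little. A gene was called where its limma adjusted p passed the threshold of 0.05 over all tested probes, in the fit that averaged the 2 arrays of each labelled replicate. Of the 7 members 5 were called lower and 0 higher, where 3.89% of all genes tested were called lower and 2.9% higher. With dye-balanced pairs, arrays 1 with 3 and 2 with 4, the count was 6 of 7. Of all 14875 genes, 18.7% were called lower in that fit and 3215 genes higher. Each of these pairs holds an array of both labelled replicates, so the gap between the replicates drops out of the error. Calls with dye-balanced pairs, here and below, are therefore no second test. The ratio was below 0 on all 4 arrays for 6 of 7 members, as for 19.6% of all genes. The median ratio of the members was -0.55, against 0.02 over all genes, of which the lowest 1% lay at -0.53 or below. Without array 1 the count of 5 became 2, Cubn and Lrp2, where the lower calls over all genes went from 578 to 76. The member count became 0 with no filter on dim probes, where 4 of 27574 genes were called lower, and 0 with median centring in place of loess, where 0 genes were. The median member ratio was -0.53 without array 1 and -0.55 with no filter. None of these counts supports the choice of the members, since the same ratios chose them. In bulk tissue of this kind, fewer cells of a type and less RNA per cell cannot be told apart.

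**Figure D1:**
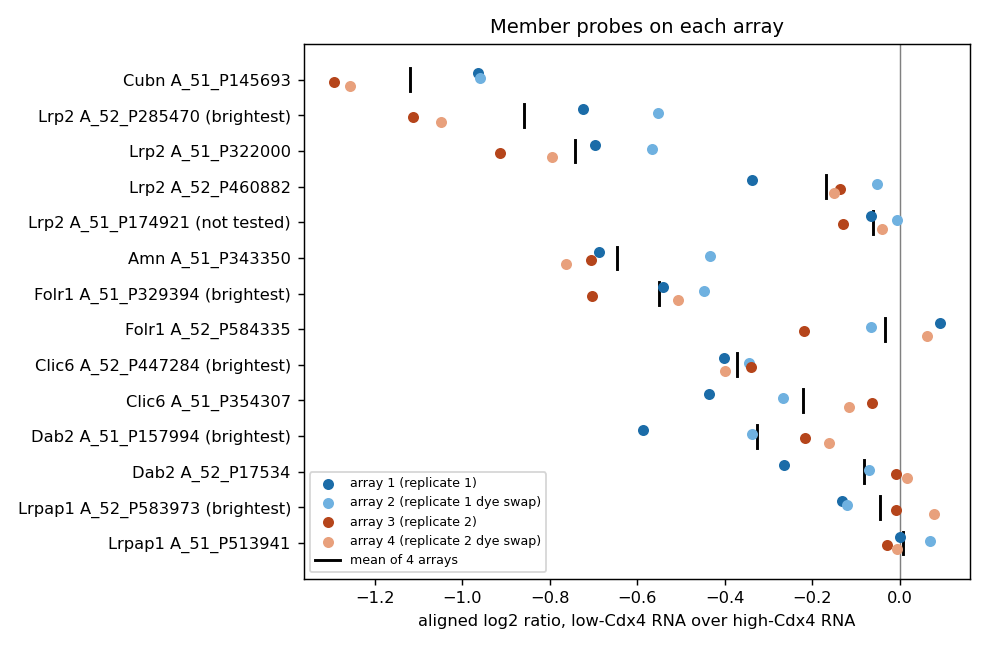
Turned log2 ratio (low-Cdx4 RNA over high-Cdx4 RNA, horizontal axis) of each of the 14 member probes (vertical axis) on the 4 arrays, with a bar at the mean of the arrays. The Cubn probe lay between -1.29 and -0.96, the brightest Lrp2 probe between -1.11 and -0.55, and both Lrpap1 probes lay around 0.

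Cubn encodes cubilin, the peripheral receptor for intrinsic factor with cobalamin, for apolipoprotein A-I and for albumin. Its probe, A_51_P145693 (chr2:13194214-13194273, mm8), had normalised intensities of 5142, 6304, 4582 and 3675 in the low-Cdx4 channel and 10025, 12262, 11230 and 8781 in the high-Cdx4 channel of arrays 1 to 4. Every low-Cdx4 value lay below every high-Cdx4 value. The share of all genes whose channels separate in this way was not counted, here or for the members below. The log2 ratios were -0.96, -0.96, -1.29 and -1.26. Cubn fell by 1.12 ± 0.10 on the log2 scale (moderated SE, n = 2 labelled replicates), which is 2.17-fold lower. Only 4 of the 14875 genes had a lower mean ratio, and Cubn was among the 8 genes that were at least 2-fold lower. The ratio was near -0.96 on both arrays with low Cdx4 in Cy5 and averaged -1.28 on those with low Cdx4 in Cy3.

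Lrp2 encodes megalin, the transmembrane receptor that carries cubilin inward and binds lipoproteins, vitamin-binding proteins and hormones. Its brightest probe, A_52_P285470 (chr2:69225348-69225407, mm8), read 1175, 1629, 1097 and 1016 in the low-Cdx4 channel and 1939, 2388, 2374 and 2101 in the high-Cdx4 channel. The groups did not overlap. Its ratios were -0.72, -0.55, -1.11 and -1.05, and Lrp2 fell by 0.86 ± 0.11 (moderated SE, n = 2), or 1.81-fold, the 27th lowest gene. The mean was -0.64 on arrays 1 and 2 and -1.08 on arrays 3 and 4, the largest such gap among the tested member probes.

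The other Lrp2 probes differed in size. A_51_P322000, which lies 1.022 kb away on mm8, had ratios of -0.70, -0.57, -0.91 and -0.79 and was also called lower, with a mean of -0.74. A_52_P460882, a further 11.084 kb along, had -0.34, -0.05, -0.14 and -0.15 and was not called in the labelled pairing. It was well above background on 2 arrays in the low-Cdx4 channel and on 4 in the high-Cdx4 channel. Its mean of -0.17 became -0.96 with the scanner's own processed signals. The last probe, A_51_P174921, lies 70.354 kb further on and was not well above background on any array, so it was not tested. The 2 brighter probes, which are close neighbours, were thus the Lrp2 probes called lower in the labelled pairing.

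Amn encodes amnionless, the membrane partner that carries cubilin to the apical surface. Its probe, A_51_P343350 (chr12:111723692-111723840, mm8), read 1601, 2244, 1801 and 1628 in the low-Cdx4 channel and 2578, 3029, 2934 and 2765 in the high-Cdx4 channel. All 4 low-Cdx4 values lay below all high-Cdx4 values. The ratios were -0.69, -0.43, -0.70 and -0.76, and Amn fell by 0.65 ± 0.10 (moderated SE, n = 2), or 1.57-fold, as the 74th lowest gene. Array 2 gave the smallest difference for Amn, as it did for Lrp2.

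**Figure D2:**
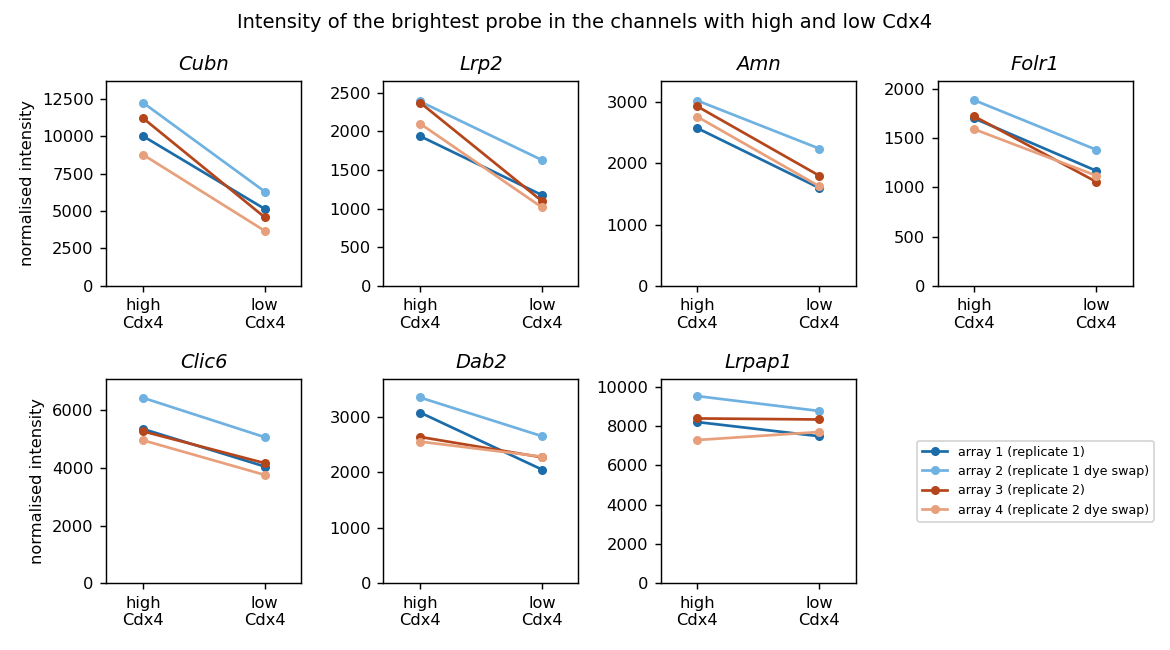
Normalised intensity (vertical axis, arbitrary units from 0, a scale of its own for each gene) of the brightest probe of each member in the channels with high and low Cdx4, with a line joining both channels of an array. The lines for Cubn, Lrp2, Amn, Folr1, Clic6 and Dab2 go down on all 4 arrays, and that for Lrpap1 goes up on array 4.

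Folr1 encodes a folate receptor held at the membrane by a lipid anchor, which takes up folate by endocytosis. Its brightest probe, A_51_P329394 (chr7:101732236-101732295, mm8), read 1168, 1382, 1056 and 1119 in the low-Cdx4 channel and 1700, 1885, 1721 and 1590 in the high-Cdx4 channel. The channels did not overlap. With ratios of -0.54, -0.45, -0.70 and -0.51, Folr1 fell by 0.55 ± 0.09 (moderated SE, n = 2), or 1.46-fold, as the 134th lowest gene. A dimmer probe, A_52_P584335, lies 9.983 kb away and did not follow it, with ratios of 0.09, -0.07, -0.22 and 0.06. The call for Folr1 therefore rested on 1 of its 2 probes.

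Clic6 belongs to the chloride intracellular channel family. Its brightest probe, A_52_P447284 (chr16:92429977-92430036, mm8), read 4043, 5058, 4160 and 3753 in the low-Cdx4 channel and 5342, 6421, 5261 and 4952 in the high-Cdx4 channel. The ranges overlapped, since the low-Cdx4 value of array 2 exceeded the high-Cdx4 value of array 4, but within each array the low-Cdx4 value was lower. The ratios of -0.40, -0.34, -0.34 and -0.40 were the most even among the called members, and Clic6 fell by 0.37 ± 0.09 (moderated SE, n = 2), or 1.29-fold, a direction that turns to 0.10 where arrays are centred on their median in place of loess. The call for Clic6 was lost in 10 of 16 alternatives without a turn of sign. The other probe, A_51_P354307, lies 0.908 kb away and had -0.44, -0.27, -0.06 and -0.11, which was not called in the labelled pairing.

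Dab2 encodes the clathrin adaptor that binds the tails of megalin and related receptors. Its brightest probe, A_51_P157994 (chr15:6386639-6386698, mm8), read 2047, 2647, 2267 and 2279 in the low-Cdx4 channel and 3072, 3342, 2633 and 2549 in the high-Cdx4 channel. The ranges overlapped. The ratios were -0.59, -0.34, -0.22 and -0.16, with a mean of -0.32 ± 0.10 (moderated SE, n = 2), which was not called in the labelled pairing. Dab2 was called lower with dye-balanced pairs, whose error leaves out the gap between the labelled replicates. The second probe, A_52_P17534, lies 14.783 kb away and had -0.27, -0.07, -0.01 and 0.02. Both Dab2 probes were lowest on array 1, where the receptor genes Cubn and Lrp2 were not at their lowest.

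Lrpap1 encodes the receptor-associated protein, a chaperone that keeps ligands off megalin and its relatives in the endoplasmic reticulum. Its brightest probe, A_52_P583973 (chr5:35410194-35411716, mm8), read 7482, 8766, 8333 and 7697 in the low-Cdx4 channel and 8203, 9522, 8386 and 7289 in the high-Cdx4 channel. The ranges overlapped almost wholly. The ratios were -0.13, -0.12, -0.01 and 0.08, with a mean of -0.05 ± 0.10 (moderated SE, n = 2). Its other probe, A_51_P513941, had 0.00, 0.07, -0.03 and -0.01, so neither Lrpap1 probe differed from 0 by more than its error.

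From lowest to highest mean ratio of the brightest probe, the order was Cubn, Lrp2, Amn, Folr1, Clic6, Dab2 and Lrpap1. Cubn lay below Lrp2 on all 4 arrays, with differences from -0.41 to -0.18. The difference of Lrp2 from Amn was -0.21 ± 0.19 (SD of 2 replicates) and that of Folr1 from Clic6 was -0.18 ± 0.08 (SD of 2 replicates), both below 0 on all 4 arrays. Amn and Folr1 changed places on array 2 and differed by -0.10 on average. Clic6 and Dab2 differed by -0.05 ± 0.19 (SD of 2 replicates), which is within the spread, and changed places on array 1. Dab2 lay below Lrpap1 on every array, by -0.28 ± 0.08 (SD of 2 replicates). These are differences between ratios, and the brightness of 1 probe is not set against that of another. The order changed with the mean over a gene's tested probes. There Amn (-0.647) lay below Lrp2 (-0.590), and Clic6 (-0.296) lay just below Folr1 (-0.291).

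The arrays did not weigh the members alike. Cubn, Lrp2, Amn and Folr1 had lower means on arrays 3 and 4 than on arrays 1 and 2, while Dab2 averaged -0.46 on arrays 1 and 2 and -0.19 on arrays 3 and 4, and Clic6 was -0.37 on both. Over 21801 probes, the turned ratios correlated at r = 0.82 between arrays 1 and 2 and at r = 0.87 between arrays 3 and 4, but at 0.38 to 0.44 across these pairs. These correlations are across probes, which share the slide and the RNA and are no independent replicates.

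**Figure D3:**
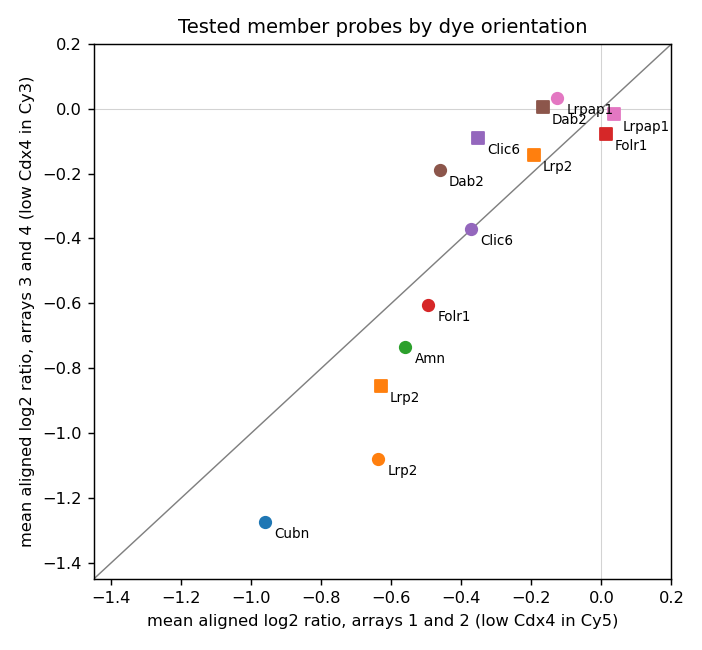
Mean turned log2 ratio of each tested member probe on arrays 1 and 2 (low Cdx4 in Cy5, horizontal axis) and on arrays 3 and 4 (low Cdx4 in Cy3, vertical axis), with circles for the brightest probe of a gene, squares for its other probes and the line of equal values. Cubn (-0.96 and -1.28) and Lrp2 (-0.64 and -1.08) lie below the line and Dab2 (-0.46 and -0.19) lies above it.

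The genes around the receptors were described in lists of the uptake pathway, each by its counts in the same fit. Of 13 tested relatives of megalin and sorting receptors, 2 were called lower and 0 higher, and the median ratio was 0.01. Vldlr (-0.37 ± 0.09, moderated SE, n = 2), the receptor for very-low-density lipoprotein, was among the called genes. Lrp6, a Wnt co-receptor, stood at -0.12 and was not called, and Lrp11 stood at 0.10. The megalin relatives thus had a median near that of all genes.

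Of 22 tested genes of the clathrin coat and its adaptors, 1 was called lower and 0 higher, with a median of -0.01. The called gene was Amph (-0.45 ± 0.11, moderated SE, n = 2), which encodes the membrane-curving protein amphiphysin. Fcho2, an initiator of coated pits, stood at -0.37 and Myo6, a motor that moves coated vesicles from the apical surface, at -0.29, and Gipc1, which links megalin to that motor, stood at 0.31; none of these was called. Of 21 tested genes of early and recycling endosomes, 2 were called lower, Clcn5 (-0.46 ± 0.10), the endosomal chloride transporter lost in Dent disease, and Rab11fip5 (-0.44 ± 0.10), a Rab11 effector. The other of the 2 tested Clcn5 probes stood at -0.05. The endosomal list had a median of -0.09. Of 18 lysosomal genes 3 were called lower, the proteases Ctsh (-0.91 ± 0.10), Lgmn (-0.52 ± 0.12) and Ctsl (-0.38 ± 0.10), and the list median was -0.01. The protease Ctsb, at -0.32, was not called, and its other tested probe stood at 0.06. With dye-balanced pairs 6 of the coat genes were called lower and 4 higher, 7 of the endosomal genes lower and 0 higher, and 5 of the lysosomal genes lower and 5 higher. Over all 14875 genes that pairing called 2787 lower and 3215 higher.

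Proteins that the receptors bind, or that are carried with them, formed the pathway list with the lowest median. Of 16 listed, 12 were tested, and 8 of the 12 were called lower and 0 higher, with a median of -0.59. Rbp4, the plasma carrier of retinol, stood at -1.07 ± 0.10 (moderated SE, n = 2), Apoa1, the main protein of high-density lipoprotein, at -0.88 ± 0.10, Apom, a lipocalin on lipoproteins, at -0.77 ± 0.10 and Trf, the iron carrier transferrin, at -0.71 ± 0.09. Of the 12, 6 are also in the visceral endoderm marker list. Among the 6 that are not, 2 were called lower, Apoe and Mt1, and the median was -0.15. Tcn2, which carries cobalamin in plasma, stood at 0.11 and was not called.

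The vitamins taken up through these receptors gave a different picture. Of 14 tested genes of folate uptake and one-carbon enzymes, 0 were called lower and 1 higher, with a median of -0.05. The higher gene was Slc46a1 (0.35 ± 0.09, moderated SE, n = 2), the proton-coupled folate transporter, while Folr1 was lower. Of 7 genes of cobalamin handling limma called 0 in either direction, with 0 at an unadjusted p below 0.05, and their median was 0.14; with dye-balanced pairs 1 was called lower and 4 higher. Of the 3 tested relatives of Clic6, Clic1, Clic4 and Clic5, limma called 0, with 2 at an unadjusted p below 0.05, and they stood at -0.14, 0.21 and -0.23. With dye-balanced pairs 2 of them were called lower and 1 higher. Over all 14875 genes that pairing called 2787 lower and 3215 higher. In these lists the called members Folr1, Cubn, Amn and Clic6 therefore stood below their pathway partners, with the test of that difference not made because the ratios chose them.

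**Figure D4:**
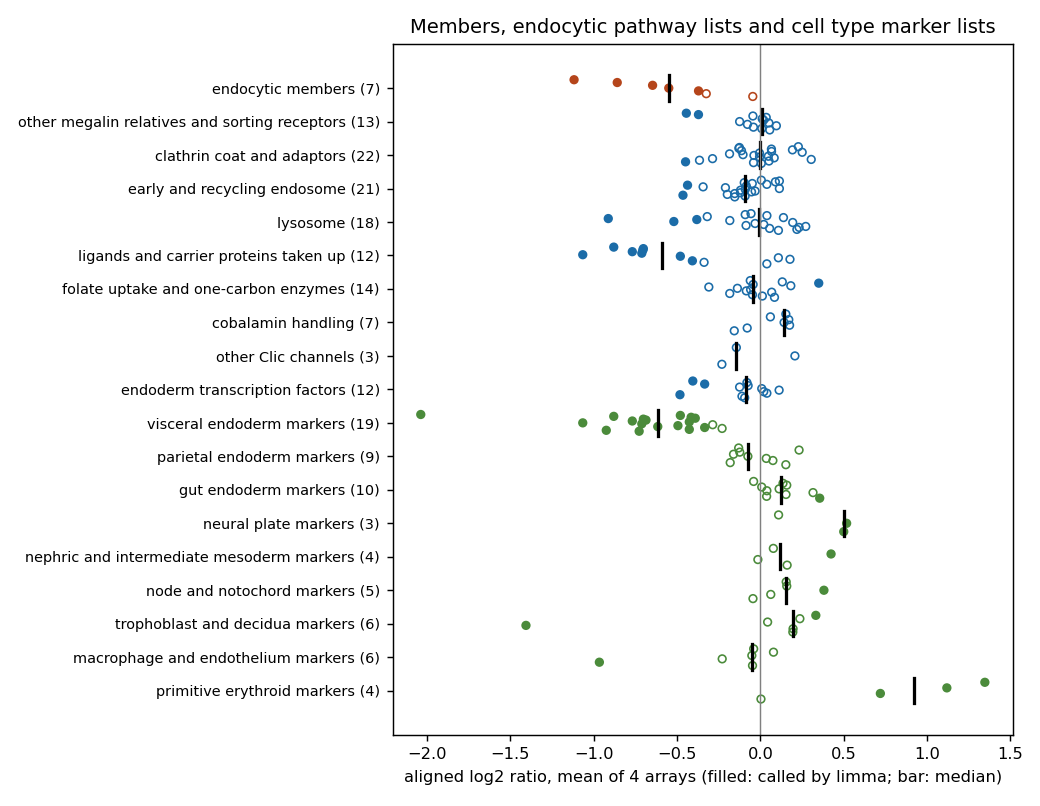
Mean turned log2 ratio of the 7 members (red), the tested genes of 9 pathway lists (blue) and of 9 cell type marker lists (green), with filled points for genes called by limma and a bar at each list's median. The members (median -0.55), the ligands and carriers (-0.59) and the visceral endoderm markers (-0.62) lie to the left, and the other pathway lists have medians between -0.14 and 0.14.

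Markers of the cell type named for these receptors were lower as well. Their list was drawn up with earlier results of these data known, so its counts are a description. Over all genes 3.89% were called lower. Of 20 visceral endoderm markers 19 were on the array and tested, 17 of these 19 were called lower and 0 higher, and all 19 were below 0 on all 4 arrays, from -2.04 to -0.23, with a median of -0.62. That median was -0.97 with the scanner's processed signals and -0.33 under median centring, which moves the median of all genes to 0.28. Afp, the fetal plasma protein alpha-fetoprotein, stood at -2.04 ± 0.10 (moderated SE, n = 2), and Spp2, a secreted phosphoprotein, at -0.93 ± 0.11. Their summed intensity ran from 76934 to 87150 in the low-Cdx4 channel and from 124303 to 163700 in the high-Cdx4 channel of the 4 arrays. Of the 19, 2 were not well above background on every array in the low-Cdx4 channel. These 2 passed the filter through the high-Cdx4 channel alone, where they were brighter, and they count among the 19 below 0. Where both channels had to be well above background on all arrays, the marker median was -0.69. The median marker lay below that of the members, and 10 of the 19 markers were lower than the member median. The part of these cells in the members' ratios was not tested.

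Of 12 tested endoderm transcription factor genes 3 were called lower, among them Sox7 (-0.48 ± 0.10, moderated SE, n = 2) and Hnf4a (-0.33 ± 0.09), regulators in extraembryonic endoderm, and the list median was -0.09. The other tested probe of Sox7 stood at -0.41 and that of Hnf4a at -0.03. Hnf4a is also in the visceral endoderm marker list. Gata6, a regulator of primitive endoderm, stood at -0.12 and was not called. Of 9 tested parietal endoderm markers limma called 0, with 1 at an unadjusted p below 0.05, and the median was -0.08. With dye-balanced pairs, which called 2787 of 14875 genes lower and 3215 higher, 4 of these 9 were called lower and 2 higher. Values of the parietal list ran from Srgn at -0.18 to Plat at 0.23. Of its 9 genes, 5 were below 0 on all 4 arrays, as were 19.6% of all genes. Gut endoderm markers, 10 tested, had 1 higher call, Krt18 (0.36 ± 0.10), and a median of 0.12. In the labelled pairing, the visceral list was thus the only endoderm marker list with lower calls, and with dye-balanced pairs all 19 of its tested genes were called lower.

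Other tissues in which these receptors also act, or which could lie in the dissected part, were listed as well. Nephric and intermediate mesoderm, where megalin and cubilin are later made, had 4 of 6 markers tested, with 1 called higher, Lhx1 (0.42 ± 0.09, moderated SE, n = 2). Neural plate, which also makes megalin, had 3 of 8 tested and 2 called higher, Sox2 (0.52 ± 0.09) and Nkx6-1 (0.50 ± 0.09). Node and notochord had 1 of 5 called higher, Car3 (0.38 ± 0.09). The kidney list, with 4 tested genes, and the neural list, with 3, had 0 genes called lower in the labelled or the dye-balanced pairing. In the labelled pairing 3.89% of all genes were called lower, so 0 in lists this short is uninformative. The part of these tissues in the members' ratios was not tested.

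The last lists held markers of trophoblast and decidua, of macrophages and vessels, and of primitive blood. Among 6 trophoblast and decidua genes Prl8a2, a decidual prolactin relative, stood at -1.41 ± 0.10 (moderated SE, n = 2) and was called lower. Prl3d1, of trophoblast giant cells, was called higher at 0.33 ± 0.10. Hand1 (0.24) and Dcn (0.20) were not called, and the list median was 0.20. With dye-balanced pairs, which called 2787 of 14875 genes lower and 3215 higher, 1 of the 6 was called lower and 4 higher. Among 6 macrophage and endothelium genes only Kdr, the endothelial VEGF receptor, was called lower, at -0.97 ± 0.10. Among 4 tested primitive erythroid genes 3 were called higher, the embryonic globins Hbb-bh1 (1.35 ± 0.10), Hba-x (1.12 ± 0.11) and Hbb-y (0.72 ± 0.11), with a summed list intensity of 4762 to 7071 in the low-Cdx4 channel against 2166 to 3184 in the other. The part of blood, endothelial or decidual cells in the members' ratios was not tested.

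The genes whose 4 ratios were nearest to those of Cubn, by Euclidean distance over the 4 arrays and among genes with a proper symbol, were Dgkk at 0.238, Wtap at 0.260, Sparcl1 at 0.278, Gcnt1 at 0.341 and Kdr at 0.380. Dgkk, a diacylglycerol kinase, had -0.96, -0.75, -1.28 and -1.14 on arrays 1 to 4. Wtap, a subunit of the RNA methylation complex, had -0.80, -0.84, -1.20 and -1.12. Since these genes were picked by their likeness to Cubn on the same 4 values, their lower ratios on arrays 3 and 4 follow from the choice. No member was among the 5.

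**Figure D5:**
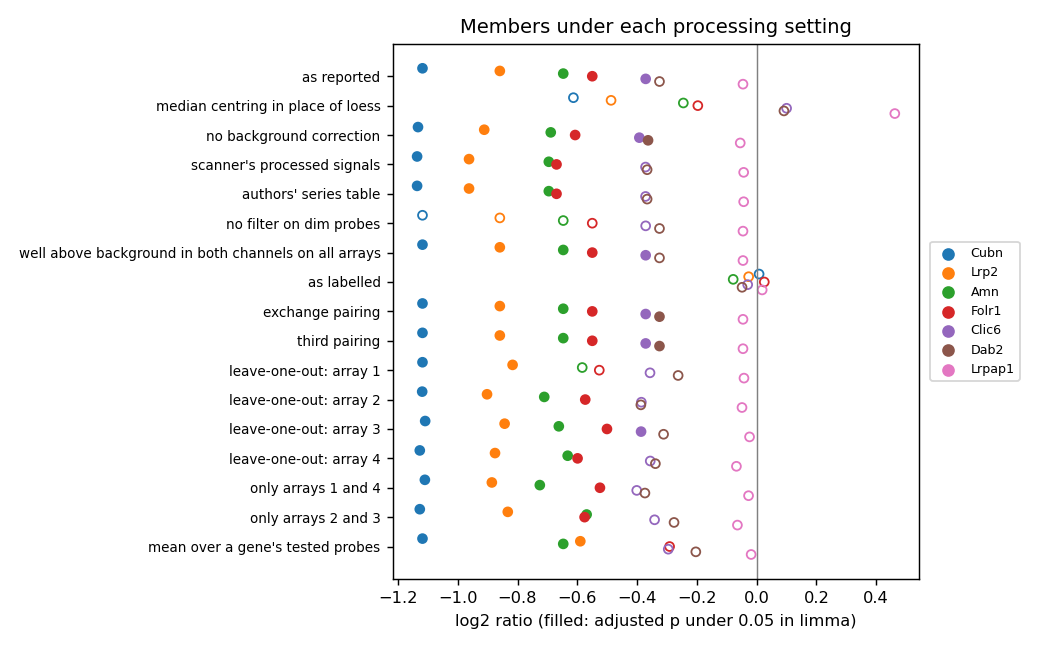
Log2 ratio (horizontal axis) of each member as reported and under each alternative processing (vertical axis), filled where the limma adjusted p passed the threshold. As labelled, all 7 members lie near 0, and under median centring Clic6, Dab2 and Lrpap1 lie above 0.

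The distance of the members from 0 depended on the processing. Without loess, each array centred on its median, the median of all tested genes moved to 0.28. Against that shift Cubn stood at -0.89, Lrp2 at -0.77, Amn at -0.53, Folr1 at -0.48, Dab2 at -0.19, Clic6 at -0.18 and Lrpap1 at 0.18. Without that correction Clic6 and Dab2 turn positive, at 0.10 and 0.09, and Lrpap1 stands at 0.46. In this setting 0 members, and 0 of all genes, were called by limma, with 266 genes at an unadjusted p below 0.05. With the arrays left as labelled, the ratios of opposite sign cancelled, and 0 members were called.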

How the data were processed

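Per the file headers, the deposited scanner files give spot intensity as mean signal and local background of Cy3 and Cy5, with processed intensities and a log10 ratio of Cy5 over Cy3. Per the submitters' processing notes, the software was Agilent Feature Extraction 9.5.3. The authors' series table holds log10 values that equal the scanner ratio on arrays 1 and 3 and its negative on arrays 2 and 4 (100% of features, tolerance 1e-05), with a median of 0 per column. All 4 arrays lie on 1 slide, so slide is no batch here.

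Intensities were background-corrected by normexp (offset 50) and normalised by loess in limma 3.58.1 (R 4.3.3), control spots at weight 0. Outlier spots (103 to 167 per array) were removed and 0 to 7 saturated spots per channel kept. Between 50.1% and 64.5% of probes were well above background per channel. Tested probes had to be well above background in the low-Cdx4 or the high-Cdx4 channel of every array, and the brightest probe stood for its gene. Log2 ratios, computed here, were turned to a negative Cdx4 ratio, averaged within each labelled replicate and fitted with lmFit and eBayes (Benjamini-Hochberg, 17.0 prior degrees of freedom beside 1 residual, so errors are largely pooled over genes). With dye-balanced pairs the prior degrees of freedom were infinite, so that fit used the same pooled variance for all genes. The script was tested on simulated data.

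Probe positions are mm8 from the files. Exon and UTR annotation of that build was not used here. Symbols came from a GRCm38.p6 RefSeq table: 23374 probes matched by accession, 6733 held a current symbol, 2919 an older one, and 8148 kept the file's name. A probe named D630005B22Rik, whose accession now belongs to Dab2, was not counted as a member. It was not well above background on any array.

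Members and lists were chosen with earlier results of these data known. Named genes are all members, Cdx4 and Cdx2, up to 4 genes per list with the largest absolute ratio, and the 5 nearest to Cubn; some genes under this rule, and 1 motif, are not reported here. Apoe, Mt1, Clic1, Clic4, Clic5 and Tcn2 are named for their counts or role, some after their values were seen. Alternatives were other normalisations, background corrections, filters, pairings, left-out arrays and probe averages.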

Additional observations from a re-analysis of the deposited data

Results flagged for a closer look

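Of 87 sets of 4 array values examined, for the member probes and the other named genes, 1 had an array far from the others. Lhx1, a transcription factor gene of the intermediate mesoderm list, stood at 0.41 on array 2 and at 0.43 on each of the other 3 arrays. The gap is large only against the very close agreement of those 3. Chance marks about 1 in 20 sets of 4 independent values. Arrays 1 and 2 agreed more closely with each other than with arrays 3 and 4, so that rate need not hold here. No member probe was marked.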

How the results depend on the processing

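The number of members called lower, 5 as reported, was 0 under median centring, 0 with no filter on dim probes, 0 as labelled and 3 with the mean over a gene's tested probes. With each array left out in turn it ran from 2 (without array 1) to 5, while 76 genes in all were called lower without array 1 and 423, 318 and 471 without arrays 2, 3 and 4, against 578. With no filter limma called 4 genes lower and 10 higher of 27574, with 3852 at an unadjusted p below 0.05, and as labelled it called 22 lower and 2 higher, with 265. The median member ratio, -0.55 as reported, was -0.20 under median centring, -0.67 with the scanner's processed signals and likewise with the authors' series table, -0.027 as labelled and -0.30 with the mean over probes. Without each array in turn it ran from -0.60 to -0.50. The sign of called members turned for Clic6 under median centring (0.10) and, as labelled, for Cubn (0.0083) and Folr1 (0.026). Of the members not called, Dab2 (0.09) and Lrpap1 (0.46) turned under median centring, and Lrpap1 (0.019) as labelled. The median of the ligands and carriers was -0.20 under median centring and -0.37 with no filter. With no filter the neural plate and primitive erythroid medians were 0.081 and 0.037, and with processed signals the erythroid median was 1.61. As labelled the visceral endoderm and ligand medians were 0.0033 and -0.0018. Cubn and Lrp2 kept call and direction in 13 of 16 alternatives, Amn in 12, Folr1 in 11 and Clic6 in 5, while Dab2 was called in 3. As labelled, ratios of opposite sign are averaged, and the mean over probes adds dimmer probes; for the other settings the cause was not tested. The number of arrays limits the precision.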
